A study of Mus musculus with 7 samples.

Results

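The expression of 10 genes that guard chromosome separation in mitosis was examined in mouse embryonic fibroblasts (MEFs) with and without an engineered deletion on chromosome 4. The genes were chosen by function, with earlier results of these data known, and found by Ensembl identifier. No measured value enters the rule. They are the spindle checkpoint genes Bub1, Bub1b, Ttk and Mad2l1, the shugoshin genes Sgol1 and Sgol2, and the chromosomal passenger genes Aurkb, Incenp, Birc5 and Cdca8. All 10 were among the 15531 genes that the authors tested between the genotypes.

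The 7 MEF lines were primary cultures from embryos at embryonic day 13.5, taken at passage 4, 10 hours after the plates had become confluent. The 4 Df/+Bl6 lines carried Df, a 4.3 Mb deletion of band 4E2, on a chromosome 4 from 129S5/SvEvBrd, and an intact homologue from C57BL/6J. The 3 +129/+Bl6 lines had the same hybrid background, with an intact chromosome 4 of each strain. The protocol in the labels, the same for all lines, names crosses of C57BL/6J with male Df/Dp chimeras, and the methods call the controls F1 crosses. The bodies without the heads were minced and plated, and the cultures were not sorted. No treatment was given, and the sources name no litter or batch for the lines. Stranded polyA+ libraries were sequenced as read pairs and aligned to a transcriptome of each strain.

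The values used are the authors' mean normalized counts for each genotype, after scaling by DESeq size factors. No column of single lines could be matched to a line by name. The depth and SD of the lines are therefore unknown, and whether lines of the 2 genotypes overlap cannot be told. A gene is said to have risen or fallen where it stands in the authors' list of genes past a false discovery rate (FDR) of 0.05. Each log2 ratio is that of the Df/+Bl6 mean over the +129/+Bl6 mean. Nothing says which lines came from separate litters, so the authors' test measures the spread between these cultures. The methods name the control crosses separately from the chimera crosses that gave Df/+Bl6 progeny. Effects of genotype and of cross or litter can therefore not be told apart.

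The genotype of the columns was checked on the deleted interval, bracketed by Rere and Ski. Of 42 tested genes between them, 26 were listed for both alleles summed, and all 26 fell, with a median log2 ratio of -1.14. For the 129S5 allele, 21 of these genes were listed, and their summed mean in Df/+Bl6 was 0.616% of that in +129/+Bl6. For the C57BL/6J allele, 11 were listed, all lower, with a median log2 ratio of -0.87. Their summed mean was 53.4% of that in +129/+Bl6, although this copy of the interval is intact in both genotypes. These 11 were listed because they differed, so they do not stand for all 42 tested genes of the interval. How read pairs without a strain variant were counted for each allele is not given in the sources used here, so whether the C57BL/6J values hold reads of that copy alone cannot be told.

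Sister chromatids are held together by cohesin until every chromosome is attached to both spindle poles. The kinases Ttk (also called Mps1) and Bub1 mark kinetochores that lack proper attachment. Mad2l1 (Mad2) and Bub1b (BubR1) then enter the mitotic checkpoint complex, which holds back Cdc20, the activator of the anaphase-promoting complex. Shugoshins bring a phosphatase to the centromere and so keep cohesin there from being removed early. The chromosomal passenger complex joins the kinase Aurkb to the scaffold Incenp and to Birc5 (survivin) and Cdca8 (borealin), which place it on centromeres. It releases faulty attachments and later acts in cytokinesis. Genes of this kind are transcribed mainly in the later part of the cell cycle. Many carry a CHR (cell cycle genes homology region), a short element close to the transcription start, often with CCAAT boxes upstream of it, and the DREAM complex and B-Myb act through the CHR.

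The promoters of the members were therefore read first, from RefSeq on GRCm38.p6, in windows from 250 bases before the transcription start to 50 bases from the start on. Windows were found for 8 members. Aurkb and Incenp had none, and Sgol2 had 2 starts. Positions are counted from the start, whose first base is 1 and whose preceding base is -1. The RefSeq start of Sgol1 lies 2016 bases inside the outer end of the gene, that of Ttk 38 and that of Bub1b 9, so positions in them refer to that start alone. Each stretch below is written 5′ to 3′ on the strand of its gene. The stretches of 30 bases are shown because they hold the CHR-like words (TTTGAA or TTCGAA, searched on both strands) of 4 members, in capitals. In Ttk the word is on the opposite strand and reads TTCAAA.
Sgol1, chr17:53689271-53689300, minus strand: gtaacgcagaatTTCGAAtgtggcggcggt
Bub1, chr2:127831828-127831857, minus strand: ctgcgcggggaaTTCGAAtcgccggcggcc
Bub1b at the start, chr2:118598231-118598260, plus strand: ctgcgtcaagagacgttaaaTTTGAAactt
Bub1b upstream, chr2:118598011-118598040, plus strand: tctctccctgggTTCGAAggcttgtcttag
Ttk, chr9:83834684-83834713, plus strand: cagcggggaaatTTCAAAcgtgtttccgga

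Of the 8 members with a window, 5 held a CHR-like word, against 19.2% of all 32851 windows and 14.0% of the 14464 windows of tested genes. Its first base was at 8 in Ttk, 14 in Cdca8, 15 in Bub1, 28 in Sgol1 and 41 in Bub1b, and Bub1b had one more at -188. In the 50 bases from the start on, a region singled out after the positions had been seen, the same 5 members held the word, against 2.46% of all windows and 1.74% of those of tested genes. In the 250 bases before the start only Bub1b held it, against 17.1% of all windows. Mad2l1, Birc5 and both starts of Sgol2 showed neither word in the window, which says nothing of sequence outside it. The words were counted and not tested.

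The CCAAT box was found on either strand in 6 of the 8 members, and in 37.4% of all windows. The 100 bases before the start are shown for the 3 members that hold more than 1 CCAAT box there, with each box in capitals, reading ATTGG where it lies on the opposite strand.
Bub1, chr2:127831860-127831959, minus strand: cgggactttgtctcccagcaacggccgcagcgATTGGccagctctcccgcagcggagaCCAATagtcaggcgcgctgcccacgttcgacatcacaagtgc
Ttk, chr9:83834589-83834688, plus strand: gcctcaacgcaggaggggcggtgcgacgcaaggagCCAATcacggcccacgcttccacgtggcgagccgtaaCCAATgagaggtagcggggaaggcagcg
Cdca8, chr4:124936918-124937017, minus strand: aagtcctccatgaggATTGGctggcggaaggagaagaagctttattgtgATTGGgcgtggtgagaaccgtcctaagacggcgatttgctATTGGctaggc

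In Bub1 the boxes began at -68 and -42, and in Ttk at -65 and -28. Cdca8 had 4, at -85, -51, -11 and 19. Bub1b had 1 box, at -113, and Sgol1 had 1, at 3. The starts of Sgol2 had 1 box each, at -194 and at 14. E2F-like words (TTTCCCGC, TTTCGCGC, TTTGCCGC or TTTGGCGC on either strand) were found in 0 of the 8 members and in 2.26% of all windows. A match is a description of the letters, and binding was not measured.

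**Figure D1:**
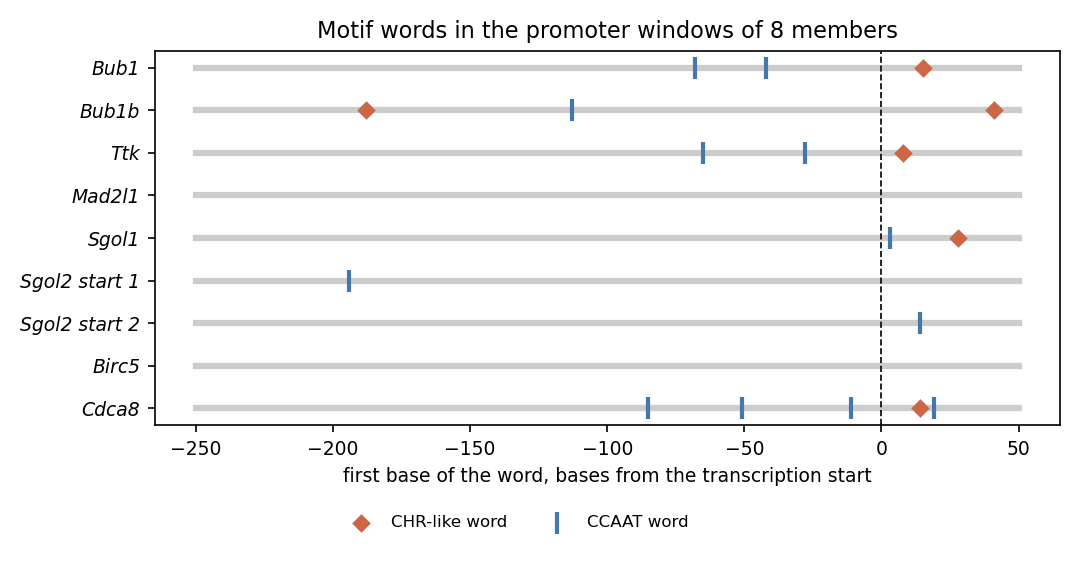
Motif words in the promoter windows of 8 members. Each grey line is a window of 250 bases before to 50 bases after the transcription start (dashed line), diamonds are CHR-like words and bars CCAAT words, and the horizontal axis gives the first base of each word. In 5 members a diamond lies between 8 and 41 bases from the start on.

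With the counts of both alleles summed, all 10 members rose in Df/+Bl6. Over all tested genes, 8.67% were listed and 5.13% were listed as higher. The members were chosen with earlier results of these data known, so their counts beside these shares carry no test. The log2 ratios of the members ranged from 0.80 to 1.94 with a median of 1.19, a median fold of 2.29. The 796 genes listed as higher had a median log2 ratio of 0.80. For 8 of the 10 members the ratio was at least 1. Of all tested genes, 1.45% were listed as higher with a ratio of at least 1. Ratios of genes not listed were not computed. The summed mean of the members went from 22291 to 47757 normalized counts. In RNA from whole cultures, more cells in mitosis and more of these RNAs in each dividing cell cannot be told apart.

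**Figure D2:**
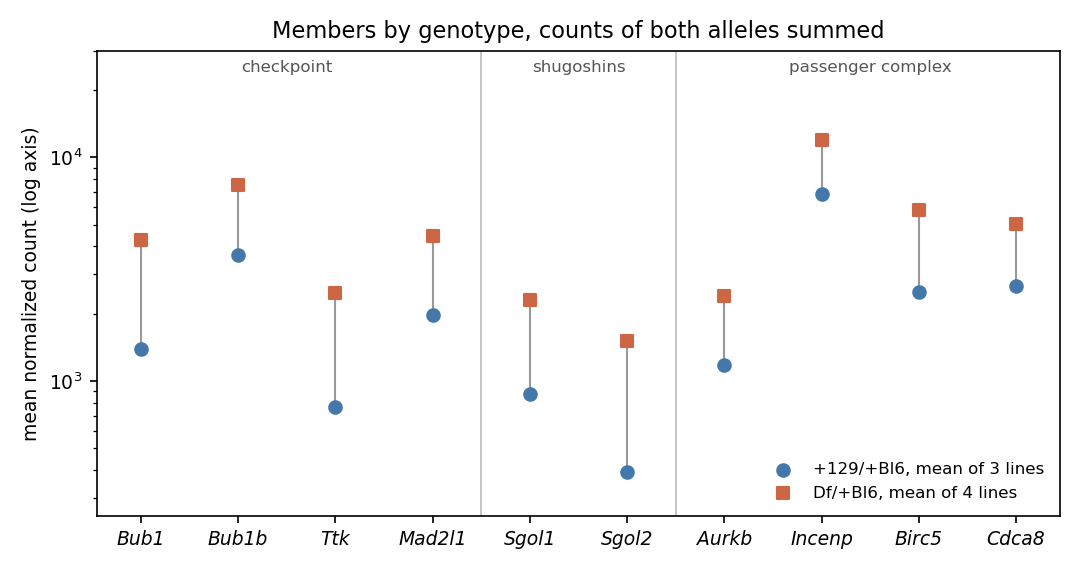
Mean normalized count of each member by genotype, on a log axis, with the counts of both alleles summed. Circles are the authors' means of 3 +129/+Bl6 lines and squares those of 4 Df/+Bl6 lines, and no error bar is drawn because no values of single lines were used. The square lies above the circle for each of the 10 genes.

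The 4 checkpoint genes rose by a median log2 ratio of 1.40. Ttk, the kinase at the top of the checkpoint (ENSMUSG00000038379, chr9:83834651-83872390), went from 763 normalized counts in +129/+Bl6 to 2465 in Df/+Bl6, a log2 ratio of 1.69. Bub1, the kinase that marks centromeric chromatin for the shugoshins (ENSMUSG00000027379, chr2:127800197-127831859), went from 1388 to 4278, a log2 ratio of 1.62. These ratios stood at places 14 and 24 among the 796 genes listed as higher.

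Mad2l1, the inhibitor that binds Cdc20 directly (ENSMUSG00000029910, chr6:66535221-66541107), went from 1969 to 4449 normalized counts, a log2 ratio of 1.18. Bub1b, its partner in the mitotic checkpoint complex (ENSMUSG00000040084, chr2:118598202-118641592), went from 3655 to 7504, a log2 ratio of 1.04. The kinases that start the signal thus had larger ratios than the inhibitors of Cdc20, while the inhibitors had the higher means. Whether the ratios differ between these genes was not tested, since it needs the values of single lines.

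The shugoshins rose as well, from a summed mean of 1269 to 3804 normalized counts. Sgol2, which protects centromeric cohesin and is best known from meiosis (ENSMUSG00000026039, chr1:57985340-58026277), went from 392 to 1511. Its log2 ratio of 1.94, a fold of 3.85, was the largest of the members and stood at place 4 among the genes listed as higher. Sgol1, the main mitotic protector of cohesin (ENSMUSG00000023940, chr17:53674786-53691331), went from 876 to 2293, a log2 ratio of 1.39. Sgol2 had the lowest mean of the 10 genes in both genotypes. It overlaps Kctd18 on the opposite strand in the NCBI37/mm9 annotation, and Kctd18 was tested and not listed. Sgo2b, a near copy of Sgol2 in RefSeq, was not matched to an identifier here, and the sharing of reads between the copies was not tested.

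The 4 genes of the passenger complex had a median log2 ratio of 0.97 and the largest summed means, 13246 normalized counts in +129/+Bl6 and 25258 in Df/+Bl6. Birc5, which docks the complex on centromeric chromatin (ENSMUSG00000017716, chr11:117849237-117855743), went from 2511 to 5811, a log2 ratio of 1.21. Aurkb, the catalytic subunit (ENSMUSG00000020897, chr11:69045624-69051664), went from 1182 to 2392, a log2 ratio of 1.02. The enzyme had the lowest mean of the 4 in each genotype.

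Cdca8, which helps to carry the complex to centromeres (ENSMUSG00000028873, chr4:124918465-124936917), went from 2658 to 5058 normalized counts, a log2 ratio of 0.93. It is the only member on the chromosome that carries the deletion, and lies 25.3 Mb from Rere, outside the deleted interval. A gene on its opposite strand in NCBI37/mm9, 9930104L06Rik, was tested and not listed. Incenp, the scaffold that binds and activates Aurkb (ENSMUSG00000024660, chr19:9872295-9899489), went from 6895 to 11998, a log2 ratio of 0.80. This was the smallest ratio of the 10, at place 400 of 796, and also the largest difference of the means, 5103 normalized counts.

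Low means and large ratios went together among the members. Spearman's rho between the +129/+Bl6 mean and the log2 ratio was -0.82 over the 10 genes, and -0.56 over the 796 genes listed as higher. Both measures hold the +129/+Bl6 mean and the genes were listed by the authors' test, so the values describe the list and carry no test.

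**Figure D3:**
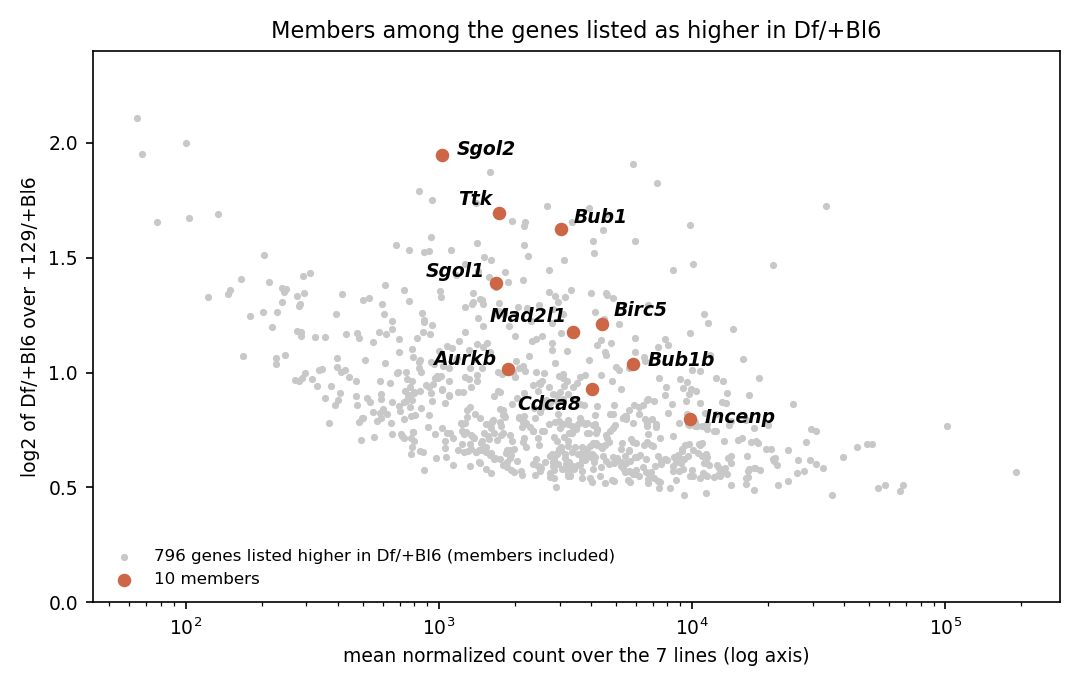
Log2 ratio of Df/+Bl6 over +129/+Bl6 against the mean normalized count over the 7 lines (log axis) for the 796 genes listed as higher (grey), with the 10 members in colour. Sgol2, Ttk and Bub1 lie near the upper edge of the genes of their level, and Incenp, at 0.80, lies among the bulk of the genes.

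Levels of different genes were compared per length, by dividing the mean normalized count by the length in kb of the longest coding transcript in GENCODE M1. On this scale Incenp was highest, with 2143 per kb in +129/+Bl6 and 3730 in Df/+Bl6. It was followed by Cdca8 (1635 and 3111), Mad2l1 (1142 and 2579) and Bub1b (997 and 2046). Birc5 (753 and 1743), Aurkb (606 and 1227) and Bub1 (406 and 1250) were intermediate. Ttk (263 and 849), Sgol1 (241 and 632) and Sgol2 (79.5 and 306) were lowest. The order was the same in both genotypes except that Aurkb and Bub1 changed places. Without values of single lines, no neighbours in this order can be said to differ beyond their spread. Birc5 has 3 coding transcripts of 789 to 3334 bases, and with the shortest its level would be 3183 and 7365 per kb. Cdca8 has 4, of 771 to 1626 bases, and would be at 3447 and 6560 per kb. Both would then stand above Incenp. Bub1b has 2, of 1722 and 3668 bases, and would be at 2123 and 4358, the latter also above Incenp. The order thus depends on the transcripts used.

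Ratios of levels per kb between members of one complex or pathway moved with the genotype. Within the passenger complex, Aurkb over Incenp went from 0.283 to 0.329, Cdca8 over Incenp from 0.763 to 0.834, and Birc5 over Incenp from 0.351 to 0.467. Incenp had the smallest log2 ratio of all members, so each of the 3 subunits had to be higher relative to it in Df/+Bl6. Sgol1 over Sgol2 went from 3.04 to 2.07, Bub1b over Bub1 from 2.46 to 1.64, and Mad2l1 over Ttk from 4.35 to 3.04. In these pairs the gene with the lower level gained on the other. Transcript length cancels in every such shift, so the shifts restate the log2 ratios given above, and none was tested.

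The comparisons of single alleles address the 129S5 and the C57BL/6J copies separately. Because the 11 listed genes of the intact C57BL/6J interval were lower in the C57BL/6J comparison, likeness of the 2 ratios of a member is not evidence that both copies changed alike. Bub1, Bub1b, Ttk, Sgol1, Aurkb and Cdca8 were listed for the 129S5 allele, and these 6 were also listed for the C57BL/6J allele, all as higher. Of the 796 genes listed as higher for both alleles summed, 14.7% were listed for the 129S5 allele and 20.0% for that of C57BL/6J. Mad2l1, Sgol2, Incenp and Birc5 were listed for neither. Which genes were tested for the alleles is not given in the sources used here, so a missing call says nothing of these 4. The 3 comparisons use the same lines and were normalized separately, so ratios are set side by side and levels are not.

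Bub1 went from 104 to 314 normalized counts for the 129S5 allele, a log2 ratio of 1.60, and from 166 to 582 for the C57BL/6J allele, a log2 ratio of 1.81. Bub1b went from 1000.2 to 2027 for 129S5 and from 1747 to 3590.1 for C57BL/6J, log2 ratios of 1.02 and 1.04. Ttk went from 26.2 to 84.2 for 129S5 and from 83.4 to 267 for C57BL/6J, log2 ratios of 1.69 and 1.68. The 129S5 log2 ratio minus the C57BL/6J log2 ratio was 0.01 for Ttk, -0.02 for Bub1b and -0.22 for Bub1.

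Sgol1 went from 136 to 365 for the 129S5 allele and from 207 to 566 for the C57BL/6J allele, log2 ratios of 1.43 and 1.45. Aurkb went from 314 to 589 for 129S5, a log2 ratio of 0.91, and from 279 to 613 for C57BL/6J, 1.13. Cdca8 went from 224 to 516 for 129S5, a log2 ratio of 1.20, and from 178 to 344 for C57BL/6J, 0.95. Cdca8, on the chromosome 4 that carries Df, had a difference of 0.25 between the 129S5 and the C57BL/6J log2 ratio, and Aurkb, on chromosome 11, one of -0.23. The largest differences between alleles thus ran in both directions, and they were not tested. Over the 6 genes the median log2 ratio was 1.32 for 129S5 and 1.29 for C57BL/6J, beside 1.21 for both alleles summed.

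**Figure D4:**
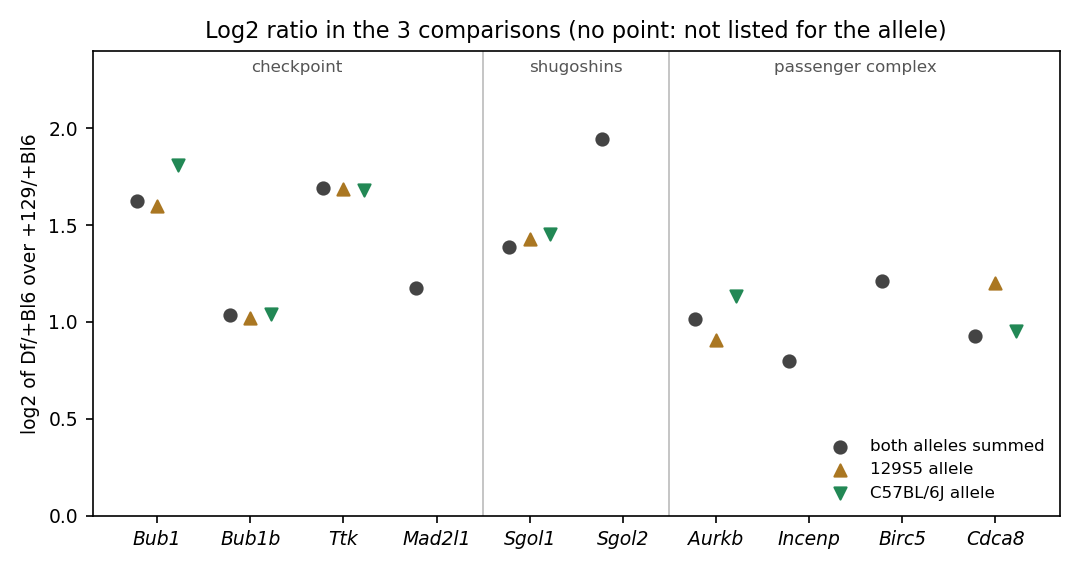
Log2 ratio of Df/+Bl6 over +129/+Bl6 for each member in the 3 comparisons: circles for both alleles summed, upward triangles for 129S5 and downward triangles for C57BL/6J. For Mad2l1, Sgol2, Incenp and Birc5 only the circle is drawn, and for the other 6 genes the triangles lie within 0.25 of each other.

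The genes listed in all 3 comparisons whose ratios lay nearest to the medians of these 6 members were sought among 156 genes outside the members and their lists, by Euclidean distance over the 3 log2 ratios. The nearest was Cenpq, a subunit of the inner kinetochore, with 1.15 for both alleles summed, 1.27 for 129S5 and 1.34 for C57BL/6J. Sass6, which builds the centriole, had 1.20, 1.22 and 1.25. Ckap2l, a spindle protein, Prr11 and Rif1, which acts in replication timing, came next, at distances of up to 0.148.

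The members were then set beside other genes of their pathways. These lists were chosen with earlier results of these data known, so their counts carry no test. Over all tested genes 5.13% were listed as higher. Of 18 further checkpoint and kinetochore genes, 17 were tested, and 11 rose and 0 fell, with a median log2 ratio of 1.16. Casc5, the kinetochore scaffold that recruits Bub1 and Bub1b, went from 631 to 2308 normalized counts, a log2 ratio of 1.87. Kntc1, which helps to load Mad2 at kinetochores, went from 1610 to 3979 (1.31). Cdc20, the target of the checkpoint, had the smallest ratio, 0.60, from 5811 to 8820.1, and Tpr, a nuclear pore protein that binds checkpoint proteins, had 0.68. Bub3, the partner of Bub1 and Bub1b, and Mad1l1, the kinetochore partner of Mad2l1, were tested and not listed, as were Zwint, Zw10, Mad2l1bp and Mad2l2. Usp44 was not among the tested genes. The list is not complete, and the kinetochore gene Ndc80, outside it, was listed as higher with a log2 ratio of 1.49.

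Of 20 chosen genes of cohesin, its regulators and the phosphatase that shugoshins recruit, 10 rose and 0 fell, with a median log2 ratio of 0.67. The choice is not complete. Smc3 (log2 ratio 0.96), Esco1 (0.71), Esco2 (1.55) and Nipbl (0.60) were outside it and were also listed as higher. The median is therefore no contrast with the shugoshins. Cdca5 (sororin), which stabilises cohesin on chromatin, went from 692 to 1403 normalized counts, a log2 ratio of 1.02. Gsg2 (haspin), the kinase whose histone mark is read by Birc5, went from 541 to 1084 (1.00). The cohesin subunits Stag1 and Smc1a had the smallest ratios of the 10, 0.59 and 0.58. The 10 that were not listed were the 9 phosphatase genes of the PP2A family, Ppp2r1a, Ppp2r1b, Ppp2ca, Ppp2cb and Ppp2r5a to Ppp2r5e, and Pttg1 (securin), the inhibitor of separase. Of all tested genes, 8.67% were listed, so the absence of the phosphatase genes from the list is no contrast with the shugoshins. Nor can these genes be called unchanged.

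Of 19 partners and substrates of the passenger complex, 18 were tested, and 17 rose and 0 fell, with a median log2 ratio of 1.09. The share listed as higher over all tested genes was 5.13%. Kif20b, a kinesin of late cytokinesis, went from 1694 to 5567 normalized counts, a log2 ratio of 1.72. Ect2, which activates RhoA at the cleavage furrow, went from 2116 to 5385 (1.35). Cbx5 and Cbx3, heterochromatin proteins, had the smallest ratios, 0.70 each. Ppp1cc, a phosphatase subunit that opposes Aurkb, was tested and not listed, and Aurkc, the germ line relative of Aurkb, was not among the tested genes.

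The chosen markers of the cell cycle rose as the members did. All 10 genes of a G2/M list rose, by a median log2 ratio of 1.29, from 0.95 for Ccnb2 to 1.91 for Cenpf, and all 10 genes of an S phase list rose, by a median of 0.86, from 0.67 for Pcna to 1.01 for Mcm6. The median of the members, 1.19, lay between these medians. Over all tested genes 5.13% were listed as higher. Both lists were chosen with earlier results of these data known, so their counts carry no test. The share of dividing cells was not measured, and its part in the results was not tested.

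Of 10 fibroblast markers tested, 9 were not listed and Fn1 fell, with a log2 ratio of -0.69. None of the 7 skeletal muscle, 7 macrophage, 6 endothelial and 5 epithelial markers tested was listed. Over all tested genes 8.67% were listed, so these counts do not show that the content of these cells was alike. Of 6 Schwann and neural crest markers tested, 5 fell and 1 was not listed. The 5 fell by log2 ratios of -1.09 for Erbb3 to -2.32 for S100b. Their summed mean went from 1545 to 494 normalized counts, none of them being at 0. The part of these cells in the results of the members was not tested.

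**Figure D5:**
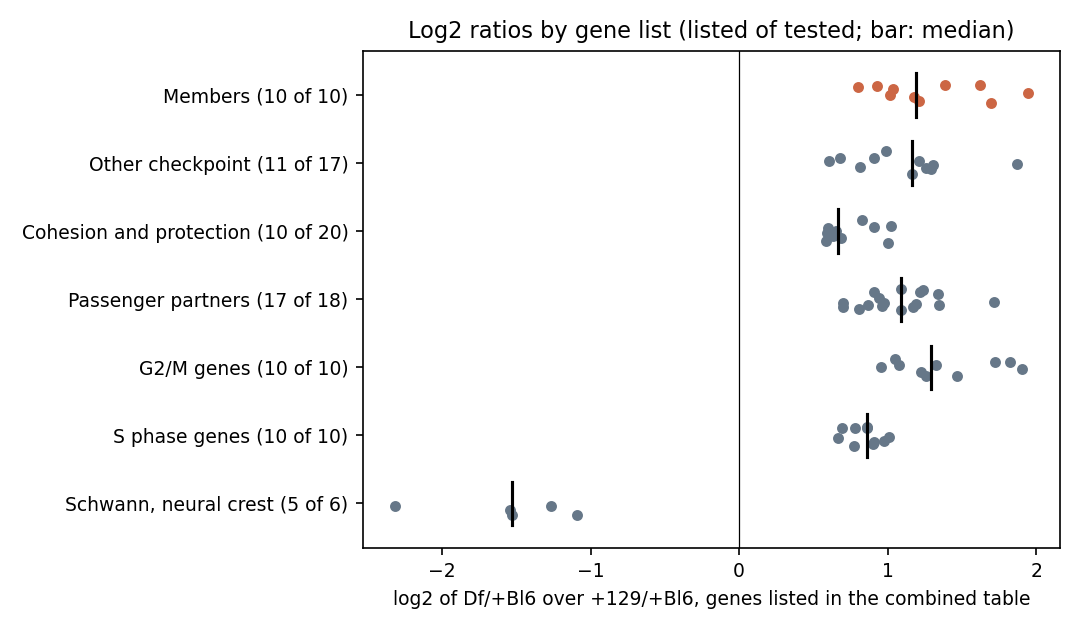
Log2 ratio of Df/+Bl6 over +129/+Bl6 for the listed genes of each gene list, 1 point per gene, with the median as a bar and the numbers listed and tested in brackets. Genes that were tested and not listed are not drawn. The 10 members, 11 checkpoint genes, 10 cohesion genes and 17 passenger partners lie to the right of 0, and 5 Schwann and neural crest genes lie to the left.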

How the data were processed

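RNA-seq of 4 Df/+Bl6 and 3 +129/+Bl6 MEF lines was used. The authors aligned read pairs with GSNAP, allowing no mismatch, to the C57BL/6J transcriptome (Ensembl release 72, GRCm38/mm10) and to a copy of it carrying 129S5/SvEvBrd variants. The longest transcript stood for each gene. Pairs were counted where both mates fell on 1 gene at a single best place, and genes with few reads were left out. How pairs without a strain variant were counted for the alleles is not given in the sources used here.

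The deposited signal values are mean normalized counts of each genotype, scaled by the authors with DESeq size factors. There are 3 tables (both alleles summed, 129S5, C57BL/6J), each normalized separately and holding only genes past the authors' FDR of 0.05. Their further columns hold the authors' fold changes, p-values and adjusted p-values, of which none is printed. Another file gives the tested genes, and its 9 columns of values have no names and were not used. Tests between lines planned with edgeR or limma were therefore not run, and being listed stands for the authors' call. Depth is unknown.

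Log2 ratios were computed with a pseudocount of 0. Members and gene lists were chosen with earlier results of these data known, and lists are given by counts and medians. Named genes were all members, the 2 largest and 2 smallest ratios of each pathway list, and the 5 genes nearest to the members. Genes named as not listed, genes named as outside a list, and the ends of the marker lists were named after their values were seen. Symbols, transcript lengths and overlaps came from GENCODE M1 (NCBI37/mm9), positions and promoters from RefSeq (GRCm38.p6). One marker, counted and not named, and one promoter stretch are not reported here. Protein features were planned and not run, since no protein sequences were used. The computations were tested on simulated data. Python 3.11.15, numpy 2.4.6, pandas 2.3.3, scipy 1.17.1 and matplotlib 3.10.9 were used.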

Additional observations from a re-analysis of the deposited data

How the results depend on the processing

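All 10 members stayed higher in Df/+Bl6 with pseudocounts of 1 and 10, which moved no ratio by more than 0.03, and after re-centring on the median of all listed genes, 0.61. Neither setting could change the direction, since the smallest mean was 392 and the smallest ratio, 0.80, lies above 0.61. The median of the listed genes leaves out all genes not listed, so it is no measure of an offset in scaling. Re-centring took Incenp to 0.19 and Cdca8 to 0.32, and left 3 members, Bub1, Ttk and Sgol2, at 1 or more. The 6 listed for the alleles were higher there too. The members' median log2 ratio was 1.19 with either pseudocount, 0.59 after re-centring, 1.32 for 129S5 and 1.29 for C57BL/6J, and 1.18 to 1.21 when each member was left out. The mean in place of the median was 1.28. Requiring a log2 ratio of at least 1 left 8 members, 5 for each allele, and took the checkpoint list from 11 to 6, the cohesion list from 10 to 2 and the passenger list from 17 to 9 genes. Members with a CHR-like word went from 5 to 1 in the bases before the start, and stayed at 5 in the 50 bases from the start on. The latter window and the shortest transcripts were chosen after seeing the data. Leaving out lines, edgeR and DESeq2 were not run, because the columns of values carry no names. No paired analysis was possible because only means of each genotype could be used. Without depth, a gene absent from a list cannot be called unchanged.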
